A study of Mus musculus with 7 samples.

Results

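Aminoacyl-tRNA synthetases are the enzymes that attach each amino acid to its transfer RNA. In a table of read counts from mouse hepatocytes with and without WDR6, 37 of 14817 gene identifiers were taken as synthetase genes. They were found by symbol, as a one-letter amino acid code followed by ars with or without a final 1 or 2, together with *Eprs*, *Farsa*, *Farsb* and *Tarsl2*. Of the 37, 21 encode cytosolic enzymes and 16, whose symbols end in 2, encode mitochondrial enzymes. *Gars*, *Kars* and *Qars* were counted as cytosolic, and so was *Tarsl2*, a homologue of *Tars* outside mitochondria. The rule itself reads symbols alone, and all 37 passed edgeR's filter on low counts. *Fars2*, the mitochondrial phenylalanine enzyme, is not matched by that list of letters and is given separately.

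A synthetase activates its amino acid with ATP, transfers it to the matching tRNA and, in several cases, hydrolyses wrong products. Animal cells keep separate nuclear genes for the cytosolic and the mitochondrial enzymes of most amino acids, while *Gars* and *Kars* each supply both compartments. Several cytosolic synthetases sit in a multi-synthetase complex held together by the scaffold proteins AIMP1, AIMP2 and EEF1E1. Transcription of many cytosolic synthetase genes is known to be driven by ATF4, the transcription factor of the integrated stress response, which binds C/EBP-ATF response elements. WDR6 itself is known as a partner of the methyltransferase FTSJ1 in the modification of the wobble base of some tRNAs.

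The hepatocytes came from male mice, were isolated by collagenase perfusion of the liver, kept overnight in serum-containing medium and received no treatment. The WT group had 4 libraries and the WDR6-WKO group, in which exon 2 of *Wdr6* had been deleted by CRISPR–Cas9 in the whole body, had 3. The study's general methods name C57BL/6J mice, 7 weeks old, as the default and give no strain or age for these mice separately, and the deletion was present in every tissue, not in hepatocytes alone. The labels number the libraries as replicates without tying each to a mouse, and the study describes all its replicates as biological. The p-values therefore measure the spread between these libraries. *Wdr6* checked the labels. It stood at 49.0, 40.6, 40.9 and 45.6 CPM (read counts put on a common scale of library size with edgeR's TMM factors) in WT and at 2.58, 2.32 and 2.23 CPM in WDR6-WKO libraries 1 to 3.

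The libraries held between 17816913 and 23668940 counted reads. All 8 hepatocyte markers were detected, and 4 of them were lower in WDR6-WKO cells with an adjusted p under 0.05 in edgeR. Over all genes tested 6.65% were called higher and 6.18% lower. The summed level of the 8 hepatocyte markers was 8122 to 9701 CPM in WT and 7534 to 8056 CPM in WDR6-WKO libraries. All 12 markers of Kupffer cells and other macrophages were detected and 4 were higher, with sums of 655 to 725 CPM in WT and 782 to 929 CPM in WDR6-WKO. The sums for 5 cholangiocyte markers, 2 of them higher, were 3068 to 3360 CPM against 3713 to 4306 CPM, and those for 8 stellate cell markers, also with 2 higher, were 573 to 629 CPM against 620 to 677 CPM. The sums for 8 sinusoidal endothelial markers were 293 to 334 CPM and 277 to 329 CPM, and 6 markers of T, B and NK cells were not analysed here. The part of these differences in the results on the synthetases was not tested, and in bulk RNA fewer cells of a type cannot be told apart from less RNA per cell. Without WDR6-WKO replicate 3 the genes called over the whole table went from 983 higher and 914 lower to 2150 and 2083, so counts are also given without that library where it moved them.

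Most cytosolic synthetase transcripts were higher in WDR6-WKO hepatocytes than in WT, while no mitochondrial one passed the edgeR test at an adjusted p under 0.05. Of the 21 cytosolic genes, 12 rose and 1 fell by edgeR's quasi-likelihood test (Benjamini-Hochberg adjusted p under 0.05), against 6.65% of all 14779 genes tested that rose and 6.18% that fell. The 12 that rose were *Aars*, *Nars*, *Sars*, *Yars*, *Tars*, *Rars*, *Cars*, *Iars*, *Lars*, *Mars*, *Eprs* and *Wars*, and the one that fell was *Dars*. The median log2 fold change was 0.273 for the cytosolic genes, -0.002 for the mitochondrial genes and 0.005 for all genes tested. The study's methods call DEGs at a log2 fold change of 0.35 or more in either direction with P below 0.05, taken here as unadjusted. By that rule 7 cytosolic genes were higher (against 6.42% of all genes) and 0 of the 37 were lower with edgeR (against 3.94%). With DESeq2 1 was lower, the mitochondrial gene *Lars2* (log2 fold change -0.88). The cytosolic shift was seen in each WDR6-WKO library. The median deviation of the cytosolic genes from the WT mean was 0.165, 0.321 and 0.275 on the log2 scale in WDR6-WKO libraries 1 to 3, and lay between -0.029 and 0.033 in WT libraries. A difference between the classes as such was not tested.

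**Figure D1:**
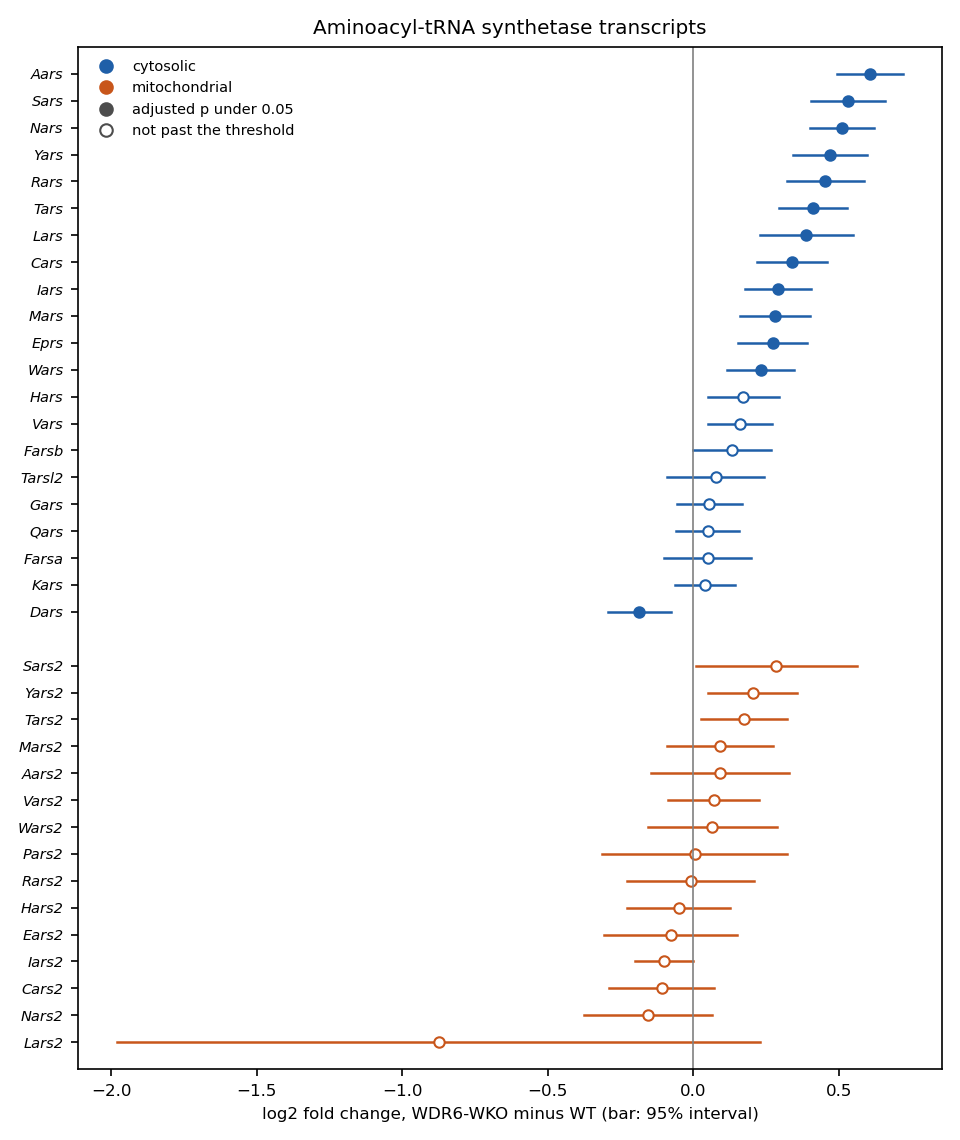
Log2 fold change (x axis, WDR6-WKO minus WT, with its 95% interval from edgeR) of 36 synthetase genes. The 12 cytosolic genes that rose and *Dars*, which fell, are filled, and every mitochondrial gene is open, with the widest interval for *Lars2*.

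The largest rise was that of *Aars*, which encodes the alanine enzyme and lies on the plus strand of chromosome 8 of GRCm38 from 111033144 to 111057664. It stood at 275, 261, 263 and 265 CPM in WT libraries 1 to 4 and at 376, 439 and 400.5 CPM in WDR6-WKO libraries 1 to 3. The groups were well apart, with WDR6-WKO replicate 2 the highest. The fold change was 1.52, or 0.61 on the log2 scale (standard error 0.05, edgeR adjusted p = 1.89e-06). Of the 50-base sequences of its principal transcript 22.4% are also found in *Exosc6*, which shares exons with it, so part of its reads could come from that gene, which was not analysed here.

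*Nars*, the asparagine enzyme on the minus strand of chromosome 18 (64499647 to 64516652), had 358, 351, 333 and 340.0 CPM in WT and 460.4, 529.8 and 485 CPM in WDR6-WKO libraries. *Sars*, the serine enzyme on the minus strand of chromosome 3 (108424865 to 108445209), had 201, 197, 186 and 190.5 CPM in WT and 259.7, 312 and 267 CPM in WDR6-WKO libraries. Both genes were lowest in WDR6-WKO replicate 1 among the knockouts and still above every WT library. The log2 fold changes were 0.51 for *Nars* (standard error 0.05, edgeR adjusted p = 9.20e-06) and 0.53 for *Sars* (standard error 0.06, edgeR adjusted p = 2.82e-05).

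*Yars*, *Tars* and *Rars* formed the next group. *Yars*, the tyrosine enzyme, whose fragments are known to act as cytokines, had 61.3, 62.2, 61.4 and 63.6 CPM in WT and 80.3, 93.5 and 84.2 CPM in WDR6-WKO libraries. *Tars*, the threonine enzyme, varied little in WT, at 168.4, 170.6, 167.5 and 167.8 CPM, and stood at 203, 239 and 231 CPM in WDR6-WKO libraries. *Rars*, the arginine enzyme, had 153, 148, 143 and 142.5 CPM in WT and 177.5, 218 and 206 CPM in WDR6-WKO libraries. All 3 were highest in WDR6-WKO replicate 2, and none of them overlapped between the groups. Their log2 fold changes were 0.47, 0.41 and 0.45, with edgeR adjusted p of 8.76e-05, 0.00013 and 0.000185.

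The remaining 6 rose by smaller amounts. *Cars*, the cysteine enzyme, had 149, 139.8, 130.1 and 138 CPM in WT and 167, 185.5 and 176 CPM in WDR6-WKO libraries, a log2 fold change of 0.34 (edgeR adjusted p = 0.000908). *Lars*, the leucine enzyme, known also as a leucine sensor upstream of mTORC1, had 120.0, 121, 121 and 112 CPM in WT and 133, 158 and 174 CPM in WDR6-WKO libraries, a log2 fold change of 0.39 (edgeR adjusted p = 0.00328). *Iars*, the isoleucine enzyme, had 222, 226, 228 and 236 CPM in WT and 257, 282 and 299 CPM in WDR6-WKO libraries, a log2 fold change of 0.29 (edgeR adjusted p = 0.00191). Of the 50-base sequences of *Iars* 8.61% are also found in *Gm4849*. In *Lars* and *Iars* WDR6-WKO replicate 3 was the highest library, whereas in *Cars* and the genes above it was replicate 2. *Mars*, the methionine enzyme, had 111, 113.5, 111 and 99.3 CPM in WT and 127, 137 and 131 CPM in WDR6-WKO libraries, a log2 fold change of 0.28 (edgeR adjusted p = 0.00394). The end of its transcript shares 68 bases with exons of *Ddit3*, a stress-induced transcription factor on the opposite strand, and the strand setting of the counting is not stated. *Ddit3* itself rose, with a log2 fold change of 1.77 (edgeR adjusted p = 0.000514), and holds 0.618% of the 50-base sequences of *Mars*. *Eprs*, a fusion of the enzymes for glutamate and proline, had 286, 287, 292 and 308 CPM in WT and 321, 366 and 376 CPM in WDR6-WKO libraries, a log2 fold change of 0.27 (edgeR adjusted p = 0.00442).

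*Wars*, the tryptophan enzyme, is known to be induced by interferon. It had 123, 119.9, 116 and 119 CPM in WT and 131, 149 and 141 CPM in WDR6-WKO libraries, so the groups did not overlap. The log2 fold change was 0.23 (standard error 0.05, edgeR adjusted p = 0.0107), the smallest of the 12 rises, and without WDR6-WKO replicate 2 it was 0.18 with an edgeR adjusted p of 0.0643. An exact permutation test, two-sided, on log2 CPM gave p = 0.0286 for each of the 12 genes that rose, which is the lowest value possible with 4 libraries against 3. Ranges with every WDR6-WKO library above every WT library were found for 14 of the 21 cytosolic genes, against 11.8% of all genes tested, and the reverse for 1 of them (*Dars*), against 11.7%.

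**Figure D2:**
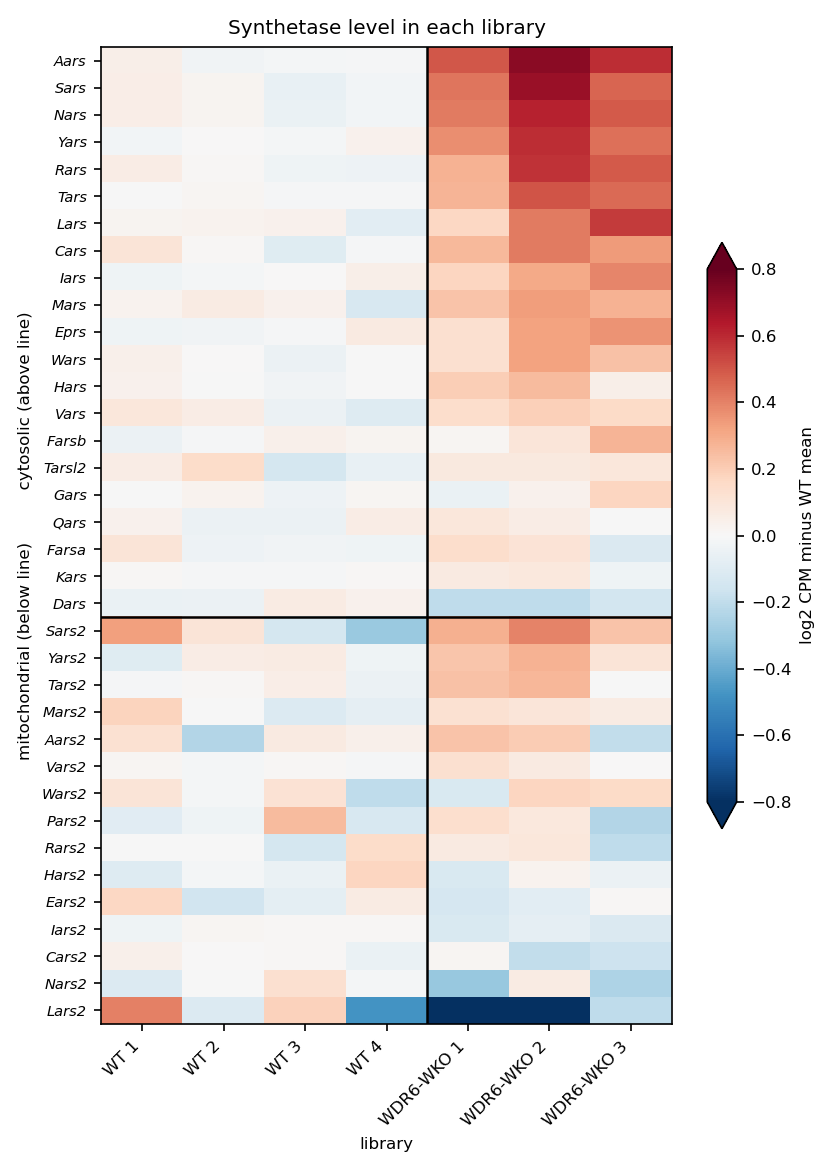
Level of 36 synthetase genes (rows) in each of the 7 libraries (columns), as log2 CPM minus the mean of the WT libraries, with cytosolic genes above the horizontal line. The upper 12 rows are raised in all 3 WDR6-WKO libraries, most in replicate 2 for *Aars*, *Sars* and *Nars*, while the mitochondrial rows show no common direction and *Lars2* also varies among WT libraries.

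*Dars*, the aspartate enzyme on the minus strand of chromosome 1 (128363707 to 128417368), was the cytosolic gene that fell. It had 128, 129, 139.6 and 136 CPM in WT and 116, 116 and 120.1 CPM in WDR6-WKO libraries. The log2 fold change was -0.19 (standard error 0.05, edgeR adjusted p = 0.0258), and the groups did not overlap. The call was lost without WDR6-WKO replicate 1 or 2 and without WT replicate 3 or 4, with edgeR adjusted p between 0.0847 and 0.101, while the log2 fold change stayed between -0.21 and -0.16 with each library left out in turn.

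Of the 8 cytosolic genes that passed neither way, *Vars* and *Hars*, the valine and histidine enzymes, came closest. *Vars* had 435, 425, 396 and 380 CPM in WT and 449.8, 466 and 454 CPM in WDR6-WKO libraries, a log2 fold change of 0.16 (edgeR adjusted p = 0.0543). *Hars*, which shares 195 bases of exon with *Hars2* on the opposite strand, had 87.5, 85.2, 83.5 and 85.1 CPM in WT and 98.0, 102 and 88.3 CPM in WDR6-WKO libraries, a log2 fold change of 0.17 (edgeR adjusted p = 0.0614). In both genes the groups stood apart. Without WDR6-WKO replicate 3 both passed the test, and 14 cytosolic genes were then called higher. *Farsb* and *Farsa*, the subunits of the phenylalanine enzyme, had log2 fold changes of 0.13 and 0.05, and *Tarsl2* had 0.08.

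*Gars*, *Kars* and *Qars*, the cytosolic genes without a mitochondrial member of their own amino acid, showed small differences. *Gars*, the glycine enzyme, had 449, 458, 437.5 and 454 CPM in WT and 434, 461 and 507 CPM in WDR6-WKO libraries. Its groups overlapped, with a log2 fold change of 0.05 and a 95% interval of -0.06 to 0.17 (edgeR adjusted p = 0.542). *Kars*, the lysine enzyme, had 144.5, 143, 143 and 145 CPM in WT and 151, 152 and 140.2 CPM in WDR6-WKO libraries, a log2 fold change of 0.04 with an interval of -0.06 to 0.14. *Qars*, the glutamine enzyme, had 120.4, 114, 114 and 122 CPM in WT and 125, 123 and 117.5 CPM in WDR6-WKO libraries, a log2 fold change of 0.05 with an interval of -0.06 to 0.16. For these 3 genes the intervals exclude a rise as large as that of *Aars*, *Nars* or *Sars*, but a p that missed the threshold does not show that their levels were equal.

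Promoter sequences were examined because the cytosolic genes moved together. RefSeq's GRCm38.p6 table of windows from 250 bases before to 50 bases after the start site holds 26 of the 37 members, 13 cytosolic and 13 mitochondrial. Among the members without a window there are *Cars*, *Hars*, *Hars2*, *Lars*, *Mars*, *Nars*, *Pars2*, *Rars*, *Vars* and *Wars*. The element searched for was TGATGNAAN on either strand, a core of the C/EBP-ATF response element in which N is any base. It was present in 5 of the 13 cytosolic genes and in 0 of the 13 mitochondrial genes, and in 3.95% of all 32851 promoter windows (4.50% of genes). Of the 6 cytosolic genes with a window that rose, 4 held it (*Aars*, *Iars*, *Tars* and *Yars*, but not *Eprs* or *Sars*), and of the 7 others *Gars* alone did. The windows that hold the element are shown 5′ to 3′ in the direction of the gene, because they hold the element that is common to several of the genes that rose. Capitals mark the element, which reads from right to left as its complement where it lies on the other strand.
Aars (chr8:111033592-111033891, plus strand): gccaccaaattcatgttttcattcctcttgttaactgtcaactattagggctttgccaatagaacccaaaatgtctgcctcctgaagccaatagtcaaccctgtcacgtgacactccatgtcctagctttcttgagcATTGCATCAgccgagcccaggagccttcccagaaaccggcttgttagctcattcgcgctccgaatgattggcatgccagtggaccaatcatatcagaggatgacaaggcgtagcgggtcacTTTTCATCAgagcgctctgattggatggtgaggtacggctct
Iars (chr13:49681880-49682179, plus strand): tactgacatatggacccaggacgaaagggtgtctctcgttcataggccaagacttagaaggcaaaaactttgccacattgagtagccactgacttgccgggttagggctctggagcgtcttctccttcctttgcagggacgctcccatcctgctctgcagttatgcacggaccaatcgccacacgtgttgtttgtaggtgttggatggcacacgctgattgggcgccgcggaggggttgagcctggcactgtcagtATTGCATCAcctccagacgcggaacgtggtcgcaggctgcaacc
Tars (chr15:11399609-11399908, minus strand): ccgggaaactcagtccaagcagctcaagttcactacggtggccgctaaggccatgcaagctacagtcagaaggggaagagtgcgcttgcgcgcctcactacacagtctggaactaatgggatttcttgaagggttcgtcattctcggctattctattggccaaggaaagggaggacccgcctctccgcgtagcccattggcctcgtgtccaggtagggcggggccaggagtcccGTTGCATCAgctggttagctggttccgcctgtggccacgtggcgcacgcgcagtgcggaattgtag
Yars (chr4:129189653-129189952, plus strand): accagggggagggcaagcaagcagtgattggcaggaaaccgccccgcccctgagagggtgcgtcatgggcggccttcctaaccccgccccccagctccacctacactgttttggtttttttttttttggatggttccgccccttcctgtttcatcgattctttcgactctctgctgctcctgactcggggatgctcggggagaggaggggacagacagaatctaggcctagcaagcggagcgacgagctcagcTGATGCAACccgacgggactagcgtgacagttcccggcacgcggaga
Gars (chr6:55037751-55038050, plus strand): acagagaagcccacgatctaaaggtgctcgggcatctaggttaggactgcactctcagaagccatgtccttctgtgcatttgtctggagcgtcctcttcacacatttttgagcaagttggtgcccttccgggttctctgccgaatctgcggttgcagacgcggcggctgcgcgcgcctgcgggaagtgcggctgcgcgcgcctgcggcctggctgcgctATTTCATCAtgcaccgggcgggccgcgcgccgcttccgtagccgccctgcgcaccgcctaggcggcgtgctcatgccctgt

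In *Aars* the element occurred at bases -113 to -105, as TGATGCAAT, and at bases 9 to 17, as TGATGAAAA, counted from 1 at the start site and read on the other strand. *Iars* held TGATGCAAT at bases 7 to 15 and *Tars* held TGATGCAAC at bases -16 to -8, both on the other strand. *Yars* held TGATGCAAC at bases 4 to 12 on its own strand, and *Gars*, which passed the test in neither direction, held TGATGAAAT at bases -31 to -23 on the other strand. A match of letters does not show that a factor binds there, and the absence of a match speaks only of these letters in this window.

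The cytosolic rises were seen both inside and outside the multi-synthetase complex. Of the 8 enzymes of the complex, 5 rose (*Rars*, *Iars*, *Lars*, *Mars* and *Eprs*) and 1 fell (*Dars*), while *Kars* and *Qars* passed in neither direction, and the median log2 fold change was 0.276. Of the 13 cytosolic genes outside it 7 rose, with a median of 0.231. Synthetases also fall into class I and class II, which have unrelated catalytic folds. *Eprs* was counted in class I for its glutamate enzyme, although its proline enzyme belongs to class II. Of the 10 cytosolic class I genes 8 rose and all 10 had a log2 fold change above 0 (median 0.285), and of the 11 class II genes 4 rose and 1 fell (median 0.132). The class II genes held both the 3 largest rises and the only fall. Over all genes tested 6.65% rose, 6.18% fell and 51.2% had a log2 fold change above 0. The groupings by complex and by class hold few genes each and were described without a test.

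None of the 16 mitochondrial genes passed the edgeR test after adjustment, in either direction. At an unadjusted p under 0.05, 3 were higher (*Yars2*, *Tars2* and *Sars2*) and 2 lower, among them *Iars2*, and DESeq2 and limma-voom called 0 of the 16 after adjustment. A log2 fold change above 0 was found for 8 of the 16, against 51.2% of all genes tested. Without WDR6-WKO replicate 3, *Tars2* and *Yars2* passed the test, with log2 fold changes of 0.25 for both. Leaving aside *Lars2*, the 95% intervals of the mitochondrial genes lay between -0.38 and 0.56, and the log2 fold change of *Aars*, 0.61, lay above all of them. The cytosolic median of 0.273 lay inside several, among them those of *Sars2*, *Yars2*, *Aars2*, *Pars2*, *Tars2* and *Wars2*. A rise of that size was therefore not excluded for these genes. Leaving aside *Lars2*, mitochondrial standard errors ran from 0.05 (*Iars2*) to 0.15 (*Pars2*). In the cytosolic genes that rose they ran from 0.05 (*Nars*) to 0.07 (*Lars*). Every WDR6-WKO library was above every WT library in 1 of the 16 (*Yars2*) and below in 2, among them *Iars2*, against 11.8% and 11.7% of all genes tested. *Fars2*, outside the list, had a log2 fold change of -0.13 (edgeR adjusted p = 0.332).

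The mitochondrial genes of the same amino acids as the 5 cytosolic genes with the smallest p stood as follows. *Aars2* had 21.0, 16.4, 20.3 and 19.9 CPM in WT and 22.65, 22.3 and 16.8 CPM in WDR6-WKO libraries, with a log2 fold change of 0.09. *Nars2* had 15.0, 16.1, 17.7 and 16.0 CPM in WT and 13.1, 16.9 and 13.6 CPM in WDR6-WKO libraries, with a log2 fold change of -0.16. In both the ranges of the groups overlapped. *Sars2* had 13.0, 11.15, 9.41 and 8.43 CPM in WT and 12.6, 13.7 and 12.1 CPM in WDR6-WKO libraries, with a log2 fold change of 0.28, an adjusted p of 0.166 in edgeR and the widest spread in WT of these genes relative to its level. *Yars2* had 27.2, 30.3, 30.5 and 28.4 CPM in WT and 33.95, 35.25 and 31.2 CPM in WDR6-WKO libraries, with a log2 fold change of 0.20 and an adjusted p of 0.0783 in edgeR. *Tars2* had 43.8, 44.3, 45.6 and 42.6 CPM in WT and 51.8, 53.0 and 44.0 CPM in WDR6-WKO libraries, with a log2 fold change of 0.17 and an adjusted p of 0.117 in edgeR. In *Yars2* every WDR6-WKO library was above every WT library, whereas in *Tars2* WDR6-WKO replicate 3 was within the WT range and in *Sars2* the highest WT library was above 2 of the knockouts.

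The ratio of the cytosolic to the mitochondrial gene of an amino acid was compared within each library, where differences in depth cancel. The ratios were not corrected for length, so only their differences between libraries are read. The 15 pairs shown leave out *Fars2*, which is outside the list, and the 1 member not reported singly. In them *Eprs* stands against both *Ears2* and *Pars2*. The mean log2 ratio was higher in the WDR6-WKO than the WT group in all 15 pairs shown. Among these the difference ran from 0.09 for *Vars* to *Vars2* up to 1.35 for *Lars* to *Lars2*. Every WDR6-WKO library was above every WT library in 8 of the 15 pairs, and the groups overlapped in the other 7. No share over all genes was computed for such ratios, which also carry the cytosolic rises given above. For *Nars* to *Nars2* the log2 ratio was 4.57, 4.44, 4.23 and 4.41 in WT and 5.13, 4.97 and 5.15 in WDR6-WKO libraries. For *Aars* to *Aars2* it was 3.71, 3.99, 3.70 and 3.74 in WT and 4.05, 4.30 and 4.57 in WDR6-WKO libraries. Both of these are among the 8 pairs without overlap.

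**Figure D3:**
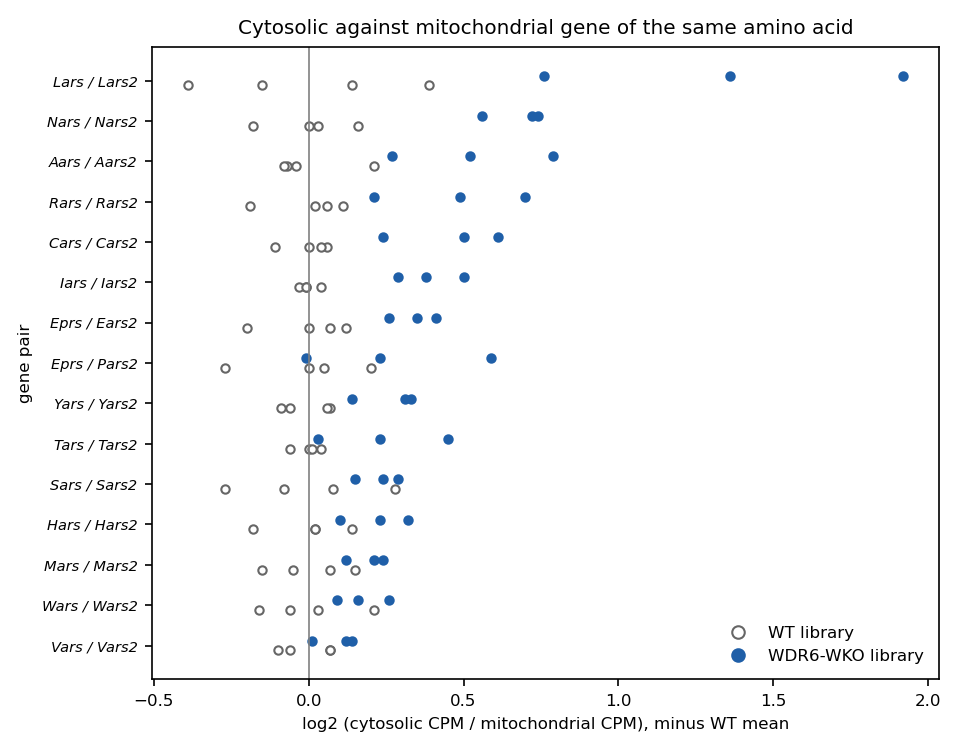
Log2 ratio of the cytosolic to the mitochondrial gene for 15 gene pairs (y axis) in each library, minus its WT mean (x axis). All 3 WDR6-WKO libraries lie above all 4 WT libraries for *Nars*, *Aars*, *Rars* and *Iars*, and the libraries mix for *Vars* and *Wars*.

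Summed over the class, the cytosolic genes took 3747, 3704, 3616 and 3655 CPM in WT libraries 1 to 4 and 4226, 4692 and 4564 CPM in WDR6-WKO libraries 1 to 3. *Lars2* was left out of the mitochondrial sum after its values had been seen. The other 15 mitochondrial genes took 406, 400.5, 405 and 399 CPM in WT and 404, 419 and 385 CPM in WDR6-WKO libraries, so the groups overlapped. *Lars2* alone exceeded that sum in all WT libraries and stood apart from every other synthetase.

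*Lars2*, the mitochondrial leucine enzyme on the plus strand of chromosome 9 (123366927 to 123462666), had 1591, 1113, 1366 and 864 CPM in WT and 355, 622 and 1044 CPM in WDR6-WKO libraries. The libraries of 1 genotype differed several-fold among the knockouts, and WDR6-WKO replicate 3 was within the WT range. The log2 fold change of -0.87 had a 95% interval of -1.98 to 0.23 and did not pass the test (edgeR adjusted p = 0.269). At the study's DEG thresholds, with unadjusted P, *Lars2* was lower in DESeq2 (log2 fold change -0.88). In edgeR it was lower by those thresholds only without WDR6-WKO replicate 3 (-1.34). Mitochondrial ribosomal RNA, which is transcribed from the mitochondrial genome, varied along with it in part. *mt-Rnr2* had 662, 685, 783 and 640.3 CPM in WT and 344, 352 and 605 CPM in WDR6-WKO libraries, and *mt-Rnr1* had 544.5, 468, 584.5 and 404.5 CPM in WT and 222, 224 and 462 CPM in WDR6-WKO libraries. In all 3 genes WDR6-WKO replicate 3 was the highest of the knockouts and WT replicate 4 the lowest of the WT libraries. However, *Lars2* differed more between WDR6-WKO replicates 1 and 2 than the ribosomal RNAs did. The highest WT library was replicate 1 for *Lars2*, whereas it was replicate 3 for both ribosomal RNAs. No 50-base sequence of the principal *Lars2* transcript, of 3894 bases, was found in either of these RNAs. Exons of all its annotated transcripts cover 11089 bases, and the rest of them were not searched. The only sequence of the principal transcript shared with another annotated gene lies at its bases 3278 to 3329 and in *Gm15564*. That gene had 5.75, 3.61, 5.96 and 2.71 CPM in WT and 0.582, 1.13 and 3.91 CPM in WDR6-WKO libraries. *Gm26917*, a further gene listed here with ribosomal RNA, had 532, 294, 359 and 234 CPM in WT and 153, 234 and 294 CPM in WDR6-WKO libraries. Within each genotype its libraries stood in the same order as those of *Lars2*. Whether ribosomal RNA content has a part in the level of *Lars2* was not tested.

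**Figure D4:**
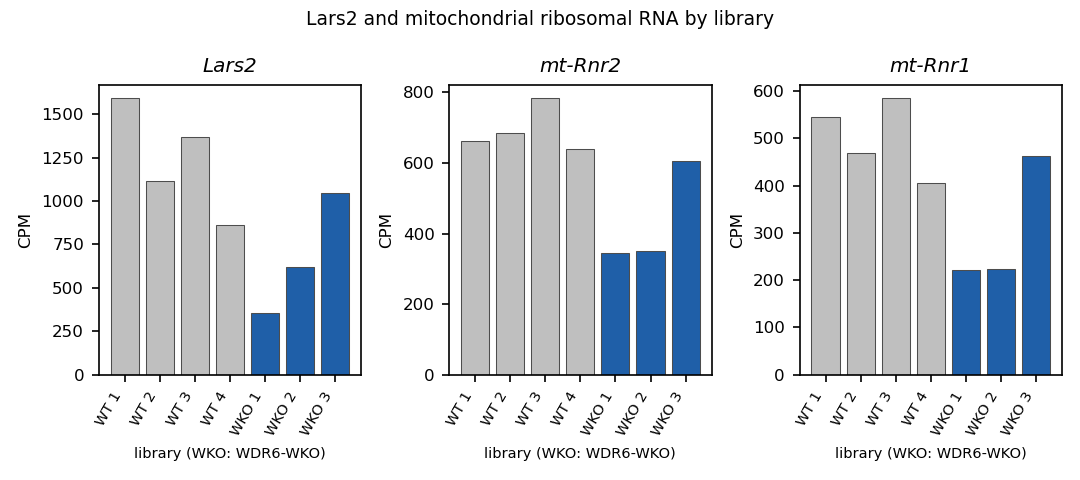
Level in CPM (y axis) of *Lars2* and of the mitochondrial ribosomal RNAs *mt-Rnr2* and *mt-Rnr1* in each library (bars, WT grey and WDR6-WKO blue). WDR6-WKO replicates 1 and 2 are below every WT library for each of the 3 genes, and replicate 3 reaches the WT range for *Lars2* and *mt-Rnr1*.

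In WT hepatocytes the cytosolic genes were the more abundant class per length of transcript. Divided by the length of the principal transcript, their level had a median of 46.3 CPM per kilobase, from 8.41 for *Tarsl2* to 189 for *Gars*, and the mitochondrial genes had a median of 6.01. *Lars2* was the highest of all at 317 ± 80.8 CPM per kilobase (s.d., n = 4), and the next mitochondrial gene was *Iars2* at 24.2 ± 0.357 CPM per kilobase, 36.6% of whose 50-base sequences are shared with *Rab3gap2* on the opposite strand. *Gars*, *Nars* and *Vars*, at 189 ± 3.82, 126 ± 4.05 and 98.8 ± 6.23 CPM per kilobase, led the cytosolic genes and did not overlap each other. *Kars* and *Wars*, at 65.7 ± 0.482 and 65.5 ± 1.64 CPM per kilobase, did not differ beyond their spread, and neither did *Tars* and *Qars*, both at 42.1, or *Pars2* and *Mars2*, the lowest genes by this measure, at 1.65 ± 0.209 and 1.72 ± 0.158. The transcript of *Mars2* has 11294 bases, and before division by length its WT mean was 19.45 CPM, against 5.02 CPM for *Pars2*. The genes that rose were spread over this order, from *Nars* near its top to *Yars* at 21.4 ± 0.361 CPM per kilobase (s.d., n = 4), while *Gars*, the highest cytosolic gene, was not called.

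**Figure D5:**
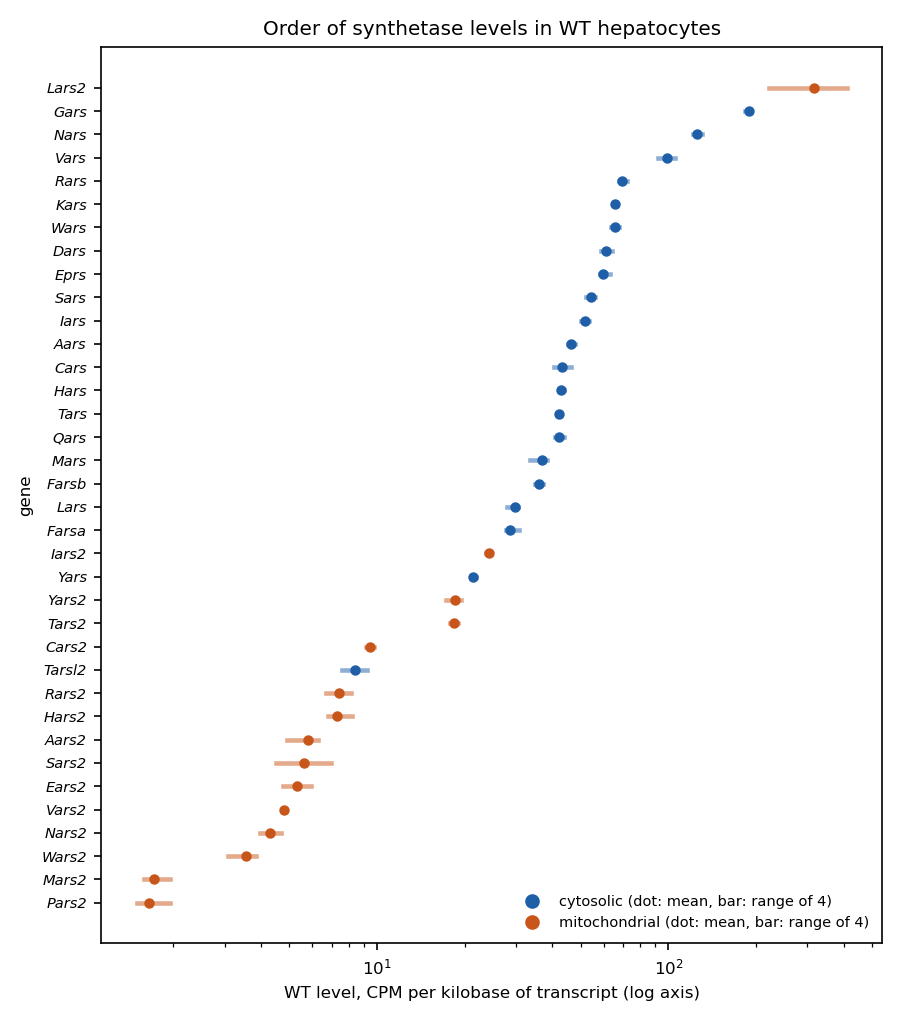
Level of 36 synthetase genes in WT hepatocytes in CPM per kilobase of its principal transcript (x axis, log scale), ordered by the mean (dot), with the range of the 4 libraries (bar). Apart from *Lars2* at the top, the mitochondrial genes lie at or below 24.2 (*Iars2*), and of the cytosolic genes *Yars* and *Tarsl2* lie below that level.

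A further 26 genes act in the scaffolding of synthetases, in the delivery, amidation, formylation and proofreading of charged tRNA, or in tRNA export and end maturation. Of these, 3 rose and 0 fell with an adjusted p under 0.05 in edgeR, against 6.65% and 6.18% of all genes tested, and their median log2 fold change was 0.077. *Xpot*, the exporter of tRNA from the nucleus, had 164, 176, 163 and 172 CPM in WT and 180.5, 209.8 and 223 CPM in WDR6-WKO libraries, a log2 fold change of 0.28 (edgeR adjusted p = 0.00957). *Eef1e1*, a scaffold of the multi-synthetase complex, had 29.2, 31.1, 31.1 and 30.1 CPM in WT and 34.0, 37.99 and 37.6 CPM in WDR6-WKO libraries, a log2 fold change of 0.27 (edgeR adjusted p = 0.0172). The other scaffolds, *Aimp1* and *Aimp2*, had log2 fold changes of 0.07 and -0.08. *Prorsd1*, a homologue of an editing domain of proline synthetases, had 9.58, 10.5, 9.68 and 8.84 CPM in WT and 12.3, 12.4 and 11.6 CPM in WDR6-WKO libraries, a log2 fold change of 0.33 (edgeR adjusted p = 0.0419). The call on *Prorsd1* was lost with DESeq2 (adjusted p = 0.0543) and in 5 of the 7 fits without a library, and that on *Eef1e1* without WDR6-WKO replicate 2 or WT replicate 1 or 4, when *Xpot* was the 1 gene of the 26 still called higher. Without WDR6-WKO replicate 3, 9 were called higher and *Aimp2* was called lower.

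Genes of the list that are not called are named here by their role, after their values had been seen. Elongation factors deliver charged tRNA to the ribosome. Of *Eef1a1*, *Eef1b2*, *Eef1d* and *Eef1g* in the cytosol and *Tufm* and *Tsfm* in mitochondria, 0 passed the edgeR test, whether adjusted or at an unadjusted p under 0.05, and *Eef1b2* and *Tsfm* did without WDR6-WKO replicate 3. *Eef1a1*, with 6118, 6236, 6100.2 and 6225 CPM in WT and 6159, 6223 and 6423 CPM in WDR6-WKO libraries, had a log2 fold change of 0.02 with a 95% interval of -0.07 to 0.11. The mitochondrial genes *Gatb*, *Gatc* and *Qrsl1*, whose products make glutaminyl-tRNA from glutamyl-tRNA because mitochondria have no glutamine enzyme of their own, and *Mtfmt*, which formylates the initiator, had log2 fold changes of -0.07, 0.12, 0.28 and -0.10. The lowest edgeR adjusted p of these 4 was 0.077, for *Qrsl1*. The lowest log2 fold change of the 26 was that of *Aarsd1*, a homologue of the editing domain of *Aars*, at -0.63 on 0.756, 0.681, 1.44 and 1.05 CPM in WT and 0.831, 0.425 and 0.614 CPM in WDR6-WKO libraries, with an adjusted p of 0.271 in edgeR.

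As a comparison within the same libraries, 8 genes of the integrated stress response, chosen with earlier results of these data known, were all higher with an adjusted p under 0.05 in edgeR (6.65% of all genes tested were), with a median log2 fold change of 1.22. *Asns*, which makes asparagine and is a target of ATF4, stood at 41.4, 39.0, 35.3 and 39.5 CPM in WT and 81.4, 122 and 121 CPM in WDR6-WKO libraries. WDR6-WKO replicate 1 had the smallest difference of the knockouts both in these 8 genes, with a median of 0.977 above the WT mean against 1.36 and 1.35 in replicates 2 and 3, and in the cytosolic synthetases. Whether these 8 genes and the synthetases are linked was not tested.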

How the data were processed

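RNA of 4 WT and 3 WDR6-WKO hepatocyte libraries was sequenced on an Illumina HiSeq platform and reads were mapped with Bowtie2 2.2.3 on mm10 (GRCm38), as the submitters' processing notes name them. The authors deposited raw read counts per gene symbol. The counting tool, annotation and strand setting are not given in the sources used here. The table has 14819 rows and no row total under 50.

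Counts were scaled with TMM and tested with edgeR 4.0.16 (R 4.3.3, robust quasi-likelihood test, no replicate block), WDR6-WKO against WT over all 14779 genes that passed filterByExpr, with Benjamini-Hochberg adjustment. The biological coefficient of variation was 7.40%. Libraries of the same genotype had Spearman's rho of 0.992 to 0.996, and none was a copy of another (chi-square 3.84 to 16.2 per gene). Standard errors came from the log2 fold change and F statistic. Alternatives used DESeq2 1.42.0, limma-voom (limma 3.58.1), other scalings, filters and thresholds, and each library left out. The steps were tested on simulated data. Lengths, exon overlaps and shared 50-base sequences came from GENCODE M21, and promoters from RefSeq. Lengths and 50-base sequences were those of the principal transcript of each gene, and exon overlaps used all its transcripts. Any member could be named, and of the listed genes those called and those at either end, with per-library values for those called, for *Wars*, *Aars*, *Gars*, *Kars* and *Qars* and for the mitochondrial partners of the top 5. The members and lists were chosen with earlier results of these data known. Of the 37 members 1 is counted but not reported singly or drawn here.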

Additional observations from a re-analysis of the deposited data

Results flagged for a closer look

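Among the 4 WT libraries, the gap of the highest or lowest library to its nearest neighbour was compared with the range of the group for each of the 37 synthetase genes, and 2 genes exceeded Dixon's 95% critical value. Chance flags about 1 in 20 such groups. *Farsa* stood at 56.0 CPM in WT replicate 1 and between 50.7 and 51.05 CPM in the other WT libraries. *Lars* stood at 111.6 CPM in WT replicate 4 and between 120.0 and 121 CPM in the other WT libraries. Without that library the log2 fold change of *Lars* remained past the threshold, as it did in every fit with a library left out (0.29 to 0.49, edgeR adjusted p from 0.000254 to 0.0175).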

How the results depend on the processing

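The count of 12 cytosolic genes that rose ranged from 11 to 14 with a library left out. The count of 1 that fell ranged from 0 to 1 and was 0 at an adjusted p under 0.01. The count of mitochondrial genes called higher, 0, ranged from 0 to 2 and was 1 (*Yars2*, edgeR adjusted p = 0.0497) with library sizes alone, a scaling that moved the median of all genes to 0.032 and the genes called from 983 higher and 914 lower to 1212 and 696. Synthetase DEGs, 7 higher and 0 lower, ranged from 6 to 9 and from 0 to 1. They became 17 and 3 without a fold change threshold, and 1 (*Lars2*) was lower with DESeq2. The 3 higher and 0 lower among the 26 other genes of tRNA charging and handling ranged from 1 to 9 and from 0 to 1. With a library left out the median log2 fold change was 0.225 to 0.301 for cytosolic genes and -0.046 to 0.046 for mitochondrial genes. With the replicate number as a block, 12 cytosolic genes rose, 1 fell, 0 mitochondrial genes were called, and 2 of the 26 other genes rose, with *Prorsd1* no longer called (adjusted p = 0.11 in edgeR). The correlations of same-numbered libraries' deviations were 0.0202 to 0.0396 over 3 pairs, and 3 of 6 libraries correlated best with their own number, so the numbers were not taken to pair the samples.

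Small fold changes that were never called turned direction. With a library left out, log2 fold changes ranged from -0.00351 to 0.121 for *Farsa*, -0.0102 to 0.102 for *Gars*, -0.0884 to 0.0117 for *Hars2*, -0.0717 to 0.102 for *Pars2* and -0.0591 to 0.0725 for *Rars2*. With the replicate block they were 0.0116 for *Hars2*, -0.0376 for *Pars2*, 0.0369 for *Rars2* and -0.00181 for *Wars2*. *Pars2* had -0.0013 with DESeq2 and -0.00048 with median-of-ratios factors, and *Rars2* had 0.0175 with library sizes alone. The cause was not tested. The alternatives without *Lars2*, with *Fars2* and without genes sharing over 5% of their 50-base sequences were chosen after seeing the data. Without the genes sharing over 5%, 10 cytosolic genes rose and 1 fell. Depth limits the lowest genes most, such as *Aarsd1*, whose 95% interval was -1.40 to 0.13.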
